A study of Rattus norvegicus with 6 samples.

Results

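The miR-221 and miR-222 cluster consists of a pair of hairpins, rno-mir-221 and rno-mir-222, and was read from 6 small RNA libraries of the RSC96 line, an established rat Schwann cell line. Every deposited row filed under either hairpin name was taken, and its read count was summed per library, per arm of the hairpin and per distinct sequence. This gave 2 of the 821 hairpins of the series, 320 of its 9522 distinct sequences and 85090 of its 3983041 counts. Of the sequences, 184 lay on the 3p arm of rno-mir-222, 101 on the 3p arm of rno-mir-221, 13 on the 5p arm of rno-mir-222 and 22 on the 5p arm of rno-mir-221. None of the 320 was listed under another hairpin.

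Cells were kept in high glucose for 48 h (3 libraries) or in low glucose for 48 h (3 libraries), and all 6 libraries came from total RNA. The sources used here state neither the glucose concentrations nor whether the replicates were separate cultures, and p-values can therefore reflect technical spread between libraries alone. The series title names exosomes, while the sample labels give the cell line, nerve as the tissue and an extraction protocol written for retinas; whether the RNA came from vesicles or from cells is not stated. Total counts were 963706, 1278405 and 1354456 in the high glucose libraries and 123716, 148143 and 114615 in the low glucose libraries, a 9.31-fold difference between the groups. Depth therefore moved with treatment in every library, and the arm fold changes and the shares and ratios tested within libraries were also computed at an equal depth of 114497 reads, where miR-222-5p was too rare to be tested.

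A miRNA hairpin is cut into a duplex whose strands, the 5p and 3p arms, can each be loaded into an Argonaute protein, which then binds mRNAs mainly through the seed, bases 2 to 8 of the loaded strand. miR-221-3p and miR-222-3p are known to repress the CDK inhibitors p27 (Cdkn1b) and p57 (Cdkn1c), which hold back the cell cycle. In nerve, both are known to increase in Schwann cells after injury. Forms of a miRNA that differ in their ends or in single bases are called isomiRs, and a shifted 5′ end changes the seed.

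Both hairpins, as listed, were identical in sequence to those of RefSeq. In the rat assembly GRCr8, rno-mir-222 lies at chrX:6022621-6022723 and rno-mir-221 at chrX:6023182-6023290, both on the plus strand and 458 bases apart. Each has its own miRNA gene record, and the cluster overlaps the spans of a pair of lncRNA genes, LOC120099382 and LOC120099384. The hairpins are shown because the results concern which stretch of each is read, and capitals mark the arms as RefSeq annotates them.
rno-mir-222: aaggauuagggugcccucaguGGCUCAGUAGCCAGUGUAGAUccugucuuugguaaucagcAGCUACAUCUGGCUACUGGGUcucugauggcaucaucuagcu
rno-mir-221: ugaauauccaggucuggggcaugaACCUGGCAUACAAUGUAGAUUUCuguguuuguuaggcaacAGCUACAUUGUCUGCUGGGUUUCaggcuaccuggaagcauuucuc

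The annotated mature arms follow with the seed in capitals. The first 8 bases of the 3p arms are identical, so both carry the seed GCUACAU, while the 5p arms have seeds of their own.
miR-222-3p: aGCUACAUcuggcuacugggu
miR-221-3p: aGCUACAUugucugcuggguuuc
miR-222-5p: gGCUCAGUagccaguguagau
miR-221-5p: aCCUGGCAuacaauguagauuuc

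The shared seed was not found in bases 2 to 8 of any of the other hairpins' listed sequences. Reads with it belong to this cluster alone in these files.

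The most frequent forms in the libraries were not always the annotated ones. The main miR-222-3p sequence was 25 nt long and ran 4 bases past the annotated 3′ end, and the next most frequent was 24 nt long. The main miR-221-3p sequence was the annotated one, and the form with its 5′ end shifted by 1 base is shown because it carries another seed. The main miR-222-5p sequence began 3 bases inside the annotated start, and the main miR-221-5p sequence was the annotated one. A miR-221-5p sequence that ran 3 bases past the annotated end is shown too, chosen after its values were seen. Capitals mark bases 2 to 8.
miR-222-3p, 25 nt: aGCUACAUcuggcuacugggucucu
miR-222-3p, 24 nt: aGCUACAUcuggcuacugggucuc
miR-221-3p, 23 nt: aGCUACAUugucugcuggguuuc
miR-221-3p, shifted 5′ end: gCUACAUUgucugcuggguuuc
miR-222-5p, 21 nt: uCAGUAGCcaguguagauccu
miR-221-5p, 26 nt: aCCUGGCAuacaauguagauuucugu

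miR-222-3p was far higher in high glucose, miR-221-3p was moderately higher, and miR-221-5p did not pass the test. miR-222-5p was higher at low counts, as a description only. Levels are TMM-scaled CPM, counts relative to the size of the library, a scaling that assumes most miRNA arms do not differ. Differences are log2 fold changes of high over low glucose from edgeR's quasi-likelihood test over 297 arms, called at a Benjamini-Hochberg adjusted p of 0.05 or lower. In that test 122 arms (41.1%) were called higher and 67 (22.6%) lower, and the median arm had a log2 fold change of 0.68. With upper quartile scaling 91 arms were called higher and 93 lower, and the median moved by -0.56.

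miR-222-3p had 21342, 18318 and 19963 counts in the high glucose libraries and 305, 290 and 265 counts in the low glucose libraries. On the CPM scale it averaged 17796 ± 3784 in high glucose, against 2147 ± 216 in low glucose (SD, n = 3 each), with no overlap between the groups. High over low glucose, the log2 fold change was 3.05 (SE 0.20, an 8.29-fold difference; adjusted p = 2.7e-05 by edgeR). It was the 15th most abundant arm in high glucose and the 46th in low glucose. It was still called with upper quartile scaling, at a log2 fold change of 2.46 (adjusted p = 4.8e-05 by edgeR).

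miR-221-3p had 7073, 6863 and 7842 counts in high glucose and 448, 512 and 422 counts in low glucose. It averaged 6448 ± 859 CPM in high glucose, against 3444 ± 330 CPM in low glucose (SD, n = 3 each), again without overlap. The difference was a log2 fold change of 0.91 (SE 0.17, a 1.87-fold difference; adjusted p = 0.0020 by edgeR), close to the median of 0.68 over all tested arms. It kept rank 31 of 297 in both groups. It was not called with upper quartile scaling, at a log2 fold change of 0.32 (adjusted p = 0.098 by edgeR).

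**Figure D1:**
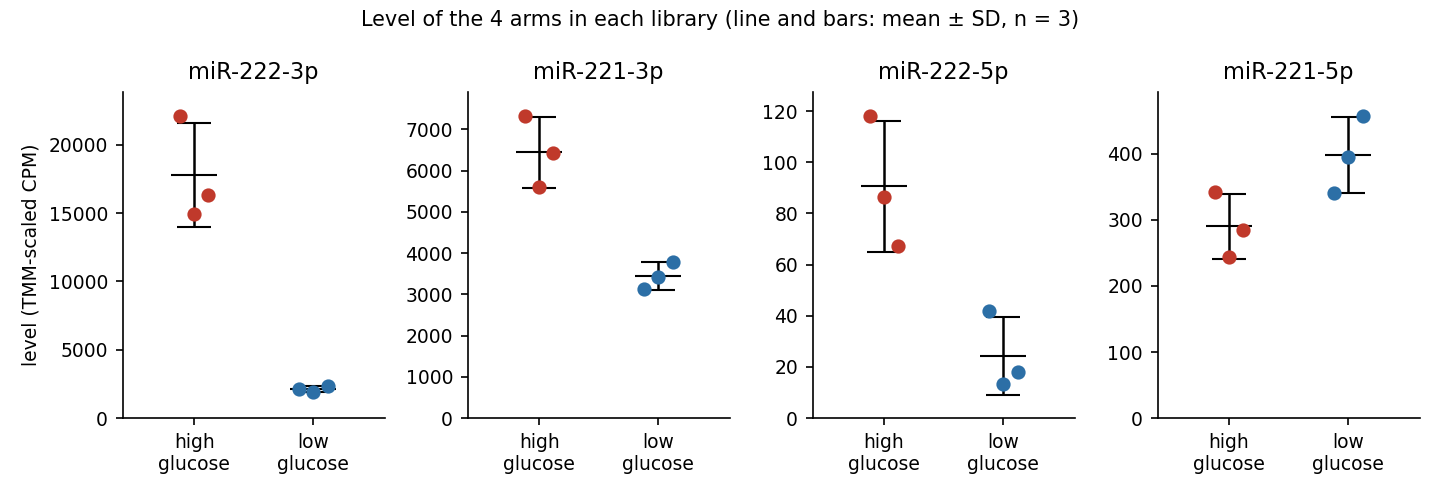
Level of each arm in each library, in TMM-scaled CPM on linear axes that start at 0 and differ between panels; points are libraries, and the line and bars are the mean and SD of 3 libraries. The 3 high glucose libraries lie above the 3 low glucose libraries for miR-222-3p, miR-221-3p and miR-222-5p, while the groups overlap for miR-221-5p.

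miR-222-5p, the minor strand of its hairpin, had 114, 106 and 82 counts in high glucose and 6, 2 and 2 counts in low glucose. Its log2 fold change was 1.87 (SE 0.53, adjusted p = 0.014 by edgeR), which rests on 10 counts in the whole low glucose group. The arm passed the filter on low counts only through the deeper high glucose libraries, so its call is a description only. The call was lost with upper quartile scaling (log2 fold change 1.26, adjusted p = 0.075 by edgeR) and without low glucose library 2 (1.67, adjusted p = 0.054 by edgeR).

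miR-221-5p, the minor strand of the other hairpin, had 330, 298 and 348 counts in high glucose and 49, 59 and 51 counts in low glucose. On the CPM scale this was 290 ± 49.3 in high glucose, against 398 ± 57.8 in low glucose (SD, n = 3 each), with overlap between the groups. Its log2 fold change was -0.45 (SE 0.23; adjusted p = 0.12 by edgeR), so it was not called. Upper quartile scaling had it called lower, at -1.04 (adjusted p = 0.0034 by edgeR). With only the most abundant sequence of each arm counted, it was called lower at -1.27 (adjusted p = 0.0059 by edgeR).

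Among the 65 annotated arms with a mean of 1000 CPM or more, 3 had a larger log2 fold change than miR-222-3p and 22 a larger one than miR-221-3p. Among all 297 tested arms, 44 had a larger one than miR-222-3p, and 22 of those 44 were at 0 in every low glucose library. The cluster as a whole took 2.995%, 2.001% and 2.085% of all counts in the high glucose libraries and 0.653%, 0.583% and 0.646% in the low glucose libraries. At equal depth, in a single draw of reads, miR-222-3p had a log2 fold change of 3.13 and miR-221-3p one of 0.99, both called.

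**Figure D2:**
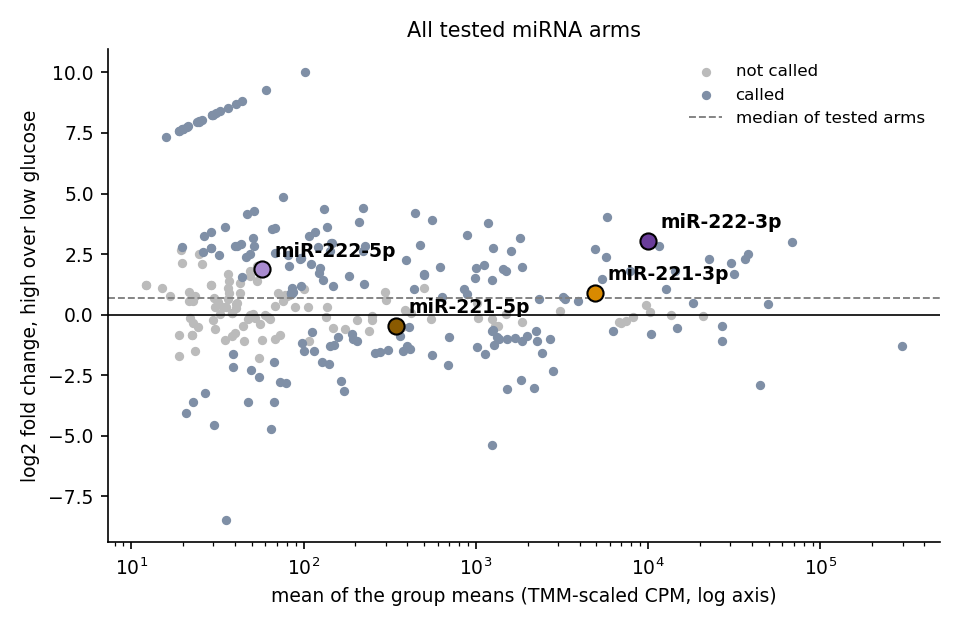
Log2 fold change of high over low glucose against the mean level (TMM-scaled CPM, log axis) for the 297 tested arms, with the 4 arms of the cluster marked and called arms in a darker shade. miR-222-3p lies at 3.05 near the top of the abundant arms, miR-221-3p at 0.91 lies near the dashed median of 0.68, and the rising strip at the upper left holds arms at 0 in the low glucose libraries, whose fold changes are set by the prior count.

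The balance between the 3p arms of the cluster was turned round between the groups. There were 3.017, 2.67 and 2.55 counts of miR-222-3p for each count of miR-221-3p in the high glucose libraries, and 0.681, 0.566 and 0.628 in the low glucose libraries. miR-222-3p was thus the more abundant arm in every high glucose library and the less abundant in every low glucose library. The geometric mean ratio was 2.74 in high glucose and 0.623 in low glucose, a 4.39-fold difference. On the log2 scale the ratio averaged 1.45 ± 0.13 in high glucose, against -0.68 ± 0.13 in low glucose (SD, n = 3 each; exact two-sided permutation p = 0.1, adjusted over 11 measures 0.183). With 3 libraries against 3, 0.1 is the smallest p this test can give; the exact tests that follow are two-sided too. The ratio is taken within a library and so does not depend on the scaling between libraries; at equal depth the log2 difference was 2.15.

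Counts with the shared seed came to 28341, 19350 and 21799 CPM in the high glucose libraries and 5167, 5321 and 6010 CPM in the low glucose libraries. The mean was 23164 ± 4648 CPM in high glucose, against 5499 ± 449 CPM in low glucose (SD, n = 3 each), 4.21-fold higher in high glucose, given as a description without a test. rno-mir-222 supplied 75.4%, 73.5% and 72.1% of these reads in high glucose, against 40.2%, 35.9% and 38.0% in low glucose. The groups did not overlap in either value, neither of which was tested. How often other arms separate in this way was not counted. Of all 3p counts of the cluster, 94.1% to 96.4% carried the shared seed in high glucose and 97.7% to 99.0% in low glucose.

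**Figure D3:**
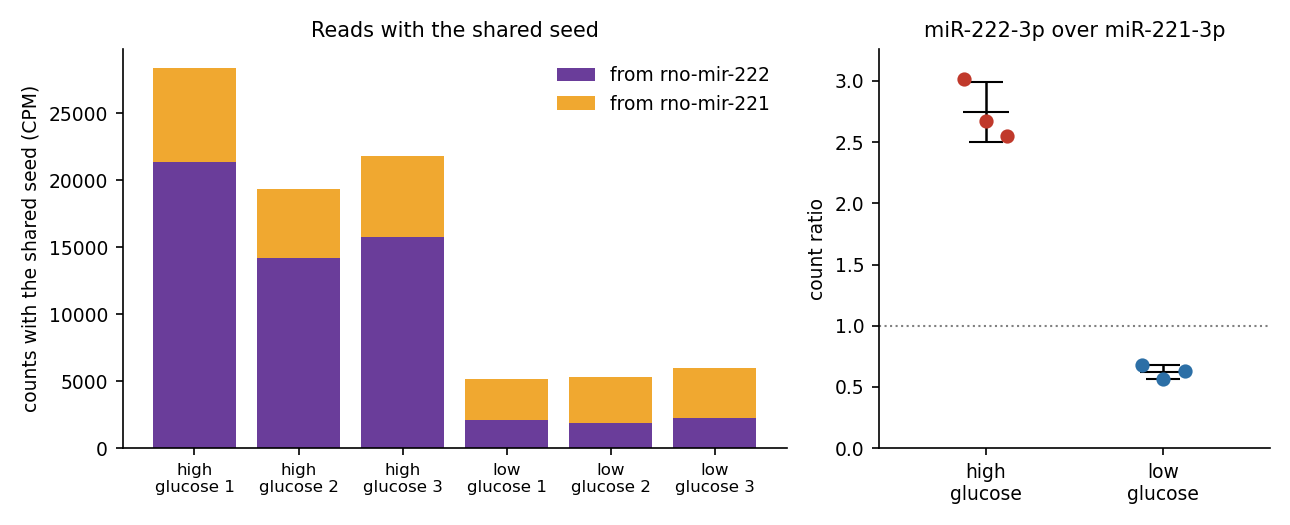
Left: counts with the shared seed in each library, in TMM-scaled CPM, stacked by the hairpin they came from. Right: counts of miR-222-3p per count of miR-221-3p in each library, with the mean and SD of 3 libraries; the ratio lies between 2.55 and 3.017 in high glucose and between 0.566 and 0.681 in low glucose, on either side of the dotted line at 1.

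The 3′ end of miR-222-3p lay further along the hairpin in high glucose. Its mean position, counted from the first base of the hairpin, was 85.49, 85.27 and 85.33 in high glucose and 84.36, 84.34 and 84.83 in low glucose, where the annotated end is base 82. The groups did not overlap, and the difference was 0.86 nt (85.36 ± 0.12 in high glucose, 84.51 ± 0.28 in low glucose; SD, n = 3 each; exact two-sided permutation p = 0.1, the smallest possible, adjusted 0.183). Of 57 annotated arms with 100 or more counts in every library, 13 (22.8%) ended further on in every high glucose library, and none of the other arms moved further in that direction than miR-222-3p. In either direction 1 arm moved further, miR-27b-3p at -0.868 nt. Shifts of miR-29a-3p and miR-125b-5p came close in size, at -0.797 and -0.784 nt, and all 3 separated the groups. The mean 3′ end of miR-221-3p was 87.14 ± 0.07 in high glucose, against 87.06 ± 0.09 in low glucose (SD, n = 3 each; exact permutation p = 0.3), with overlap.

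Among the main forms of miR-222-3p, the annotated 21 nt form and the 24 nt form differed most in share. The annotated form made up 4.67%, 7.09% and 6.72% of the arm's counts in high glucose and 26.9%, 28.6% and 16.6% in low glucose. The 24 nt form held 28.7% of the arm's counts on average in high glucose and 14.0% in low glucose. The 25 nt form, the most frequent in both groups, held 42.5%, 37.2% and 37.7% in high glucose and 32.8%, 27.6% and 32.8% in low glucose (exact permutation p = 0.1, the smallest possible, adjusted 0.183). Of the 57 arms, 23 (40.4%) had a higher share of their main sequence in every high glucose library, so miR-222-3p was 1 of many. Reads that ended past the annotated base 82 made up 92.8 ± 1.7% of the arm in high glucose, against 70.6 ± 6.6% in low glucose (SD, n = 3 each).

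**Figure D4:**
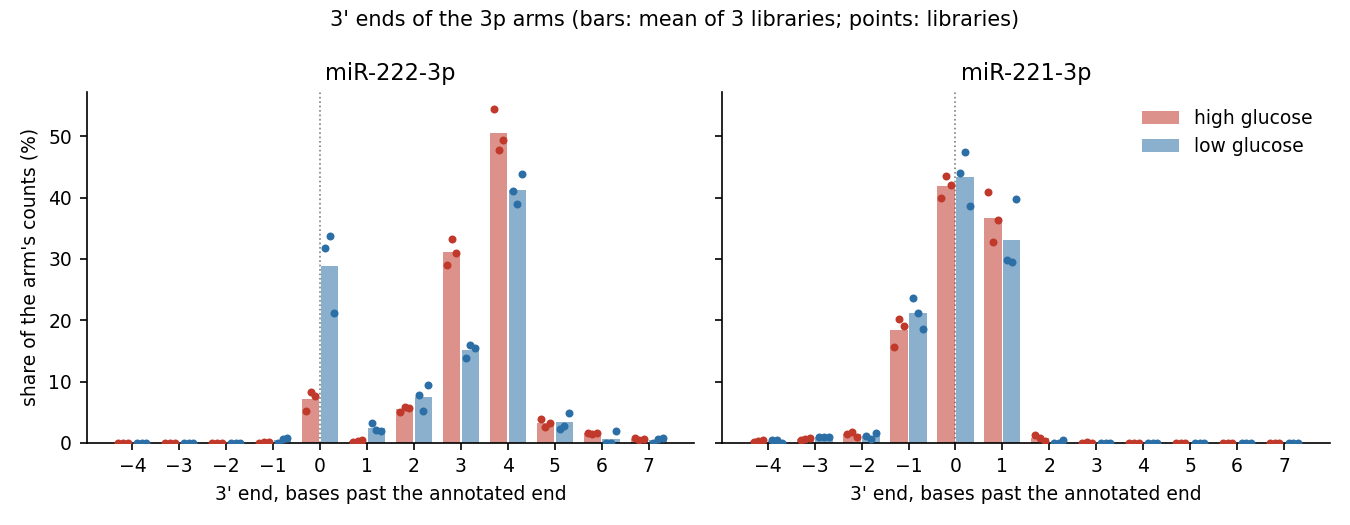
Share of each 3p arm's counts by the position of the 3′ end, in bases past the annotated end; bars are means of 3 libraries and points are libraries. For miR-222-3p the bar at the annotated end is 7.09% in high glucose and 28.9% in low glucose, and the bar 3 bases on is 31.1% in high glucose and 15.0% in low glucose, while the miR-221-3p profiles overlie each other.

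Distinct sequences were also tested singly, in an edgeR fit over 1496 sequences in which 527 (35.2%) were called higher and 261 (17.4%) lower, with a median log2 fold change of 0.54. The TMM factors of this fit were 0.78 to 0.85 in high glucose and 1.16 to 1.27 in low glucose. In the fit over arms they were 0.91 to 1.01 and 0.97 to 1.16. Log2 fold changes of sequences and of arms are therefore not on the same scale. Of the 184 sequences of miR-222-3p, 26 passed the filter on low counts, of which 22 were called higher and 0 lower. This count is a description only, since many of the 26 passed through the deeper high glucose libraries alone and 3 were at 0 in every low glucose library. The 24 nt form had 5702, 5576 and 5800 counts in high glucose and 39, 42 and 39 counts in low glucose. The fitted log2 fold change was 4.57 (SE 0.23; adjusted p = 2.1e-06 by edgeR), the 25 nt form had 3.88 (SE 0.27), and the annotated 21 nt form had 1.53 (SE 0.25; adjusted p = 7.1e-04 by edgeR). All of these were higher in high glucose, the annotated form by the least. A form of 21 nt that matches the hairpin except for the difference 21T-to-C had a log2 fold change of 0.77 and was not called (adjusted p = 0.26 by edgeR). Here positions count from 1 at the read's 5′ end and the hairpin's base comes first.

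Of the 101 sequences of miR-221-3p, 12 passed the filter, 7 were called higher and 0 lower, with the same limit. The annotated 23 nt form had 2395, 2460 and 2917 counts in high glucose and 181, 228 and 148 counts in low glucose, with a log2 fold change of 1.22 (SE 0.20; adjusted p = 7.3e-04 by edgeR). It held 33.9%, 35.8% and 37.2% of the arm in high glucose and 40.4%, 44.5% and 35.1% in low glucose (exact permutation p = 0.3), with overlap. The second most frequent form was 24 nt long with the difference 24A-to-T and a log2 fold change of 1.56 (SE 0.27; adjusted p = 0.0010 by edgeR). It held 30.4% of the arm on average in high glucose and 27.5% in low glucose. With upper quartile scaling, 19 of the miR-222-3p sequences and 6 of the miR-221-3p sequences were called higher and none lower, beside 456 higher and 343 lower of all 1496 sequences.

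The share of reads with a mismatch to the hairpin overlapped between the groups in both 3p arms. Reads with a mismatch made up 43.2%, 35.0% and 36.4% of miR-221-3p in high glucose and 33.3%, 29.7% and 41.9% in low glucose (exact permutation p = 0.5). For miR-222-3p they made up 20.7%, 18.4% and 19.2% in high glucose and 16.4%, 21.4% and 24.9% in low glucose (exact permutation p = 0.6). A mismatched U as the last base accounted for 32.7 ± 4.8% of miR-221-3p in high glucose, against 29.4 ± 6.8% in low glucose (SD, n = 3 each). In miR-222-3p it accounted for 2.6 ± 0.2% in high glucose, against 3.1 ± 0.6% in low glucose (SD, n = 3 each). In miR-222-3p the most frequent mismatched last base in high glucose was A, at 7.5 ± 0.3%, and it stood at 6.0 ± 1.1% in low glucose. A mismatched C as the last base made up 3.65%, 3.94% and 3.44% of miR-222-3p in high glucose and 5.90%, 10% and 5.66% in low glucose. On average it was that arm's most frequent mismatched last base in low glucose, where the arm had 305, 290 and 265 counts. A mismatched G stood at 0.29 ± 0.06% of miR-222-3p in high glucose, against 1.03 ± 0.53% in low glucose (SD, n = 3 each). In miR-221-3p a mismatched C made up 1.63%, 1.71% and 2.42% in high glucose and 3.57%, 3.52% and 2.61% in low glucose. None of these last-base shares was tested, and how many other arms differ in this way was not computed. Substitutions inside the read were rare, at 1.28%, 0.89% and 0.90% of miR-222-3p in high glucose and 0.66%, 0% and 0.75% in low glucose, and a sequence with a single read is not listed at any depth.

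Reads of miR-221-3p with a shifted 5′ end, which carry another seed, were more frequent in high glucose. Their share was 4.52%, 8.01% and 4.27% in high glucose and 0.893%, 0.586% and 1.42% in low glucose. The groups did not overlap, and the difference of the means was 4.64 percentage points (exact permutation p = 0.1, the smallest possible, adjusted 0.183). High glucose library 2 stood highest, and without it the difference was 3.43 points. Of the 57 arms, 18 (31.6%) had a higher share of shifted 5′ ends in every high glucose library, and 3 arms had a larger difference in that direction than miR-221-3p, while 7 had a larger one in either direction.

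The most frequent shifted form, printed above, began 1 base inside the annotated start and had 108, 179 and 147 counts in high glucose and 0, 3 and 0 in low glucose. It passed the filter on low counts only through the high glucose libraries, so no test of it is given. At equal depth the difference in the share of all shifted reads was 4.24 points. That share counts every start other than the main one, short reads included. Starts at base 66 held 2.43%, 5.22% and 2.87% of miR-221-3p in high glucose and 0.446%, 0.586% and 0% in low glucose. Short reads from base 71 held 0.976%, 1.27% and 0.74% in high glucose and 0.446%, 0% and 1.42% in low glucose, with overlap. miR-222-3p had shifted 5′ ends in 2.64%, 4.70% and 3.48% of its reads in high glucose and 2.30%, 1.72% and 3.019% in low glucose (exact permutation p = 0.2), with overlap. Over both 3p arms and all 6 libraries, 92.0% to 99.4% of reads began at the annotated base.

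The 5p arms took a smaller share of their hairpins in high glucose. For rno-mir-221 the 5p share was 4.46%, 4.16% and 4.25% in high glucose and 9.86%, 10.3% and 10.8% in low glucose, a difference of -6.04 percentage points without overlap (exact permutation p = 0.1, the smallest possible, adjusted 0.183). In other terms there were 21.4, 23.0 and 22.5 reads of miR-221-3p per read of miR-221-5p in high glucose and 9.14, 8.68 and 8.28 in low glucose. For rno-mir-222 the 5p share was 0.53%, 0.58% and 0.41% in high glucose and 1.93%, 0.68% and 0.75% in low glucose, where the low glucose values rest on 6, 2 and 2 reads. Of 39 annotated hairpins with 100 or more counts in every library, 14 (35.9%) had a lower 5p share in every high glucose library, and 2 had a difference further below 0 than rno-mir-221. For rno-mir-222, counting only exact alignments brought the difference to -0.018 points, and its direction was turned with only sequences of 10 or more reads, at 0.44 points.

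**Figure D5:**
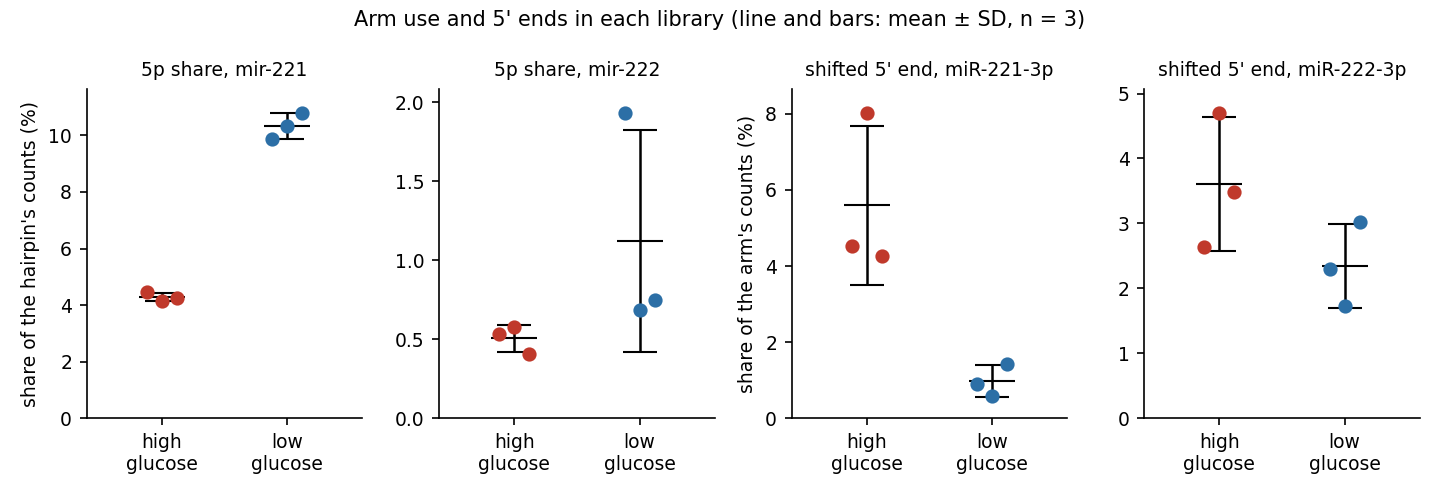
Share of each hairpin's counts on the 5p arm, and share of each 3p arm's counts with a 5′ end other than the main one, by library; the line and bars are the mean and SD of 3 libraries, and the vertical axes start at 0 and differ between panels. The 5p share of rno-mir-221 lies between 4.16% and 4.46% in high glucose and between 9.86% and 10.8% in low glucose, and the shifted share of miR-221-3p between 4.27% and 8.01% in high glucose and between 0.586% and 1.42% in low glucose.

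The shares of miR-221-5p by 3′ end are given as a description only. With 49, 59 and 51 counts in low glucose, this arm fell short of the 100 counts needed for comparison with other arms. The annotated 23 nt form made up 25.8%, 31.2% and 27.6% of the arm in high glucose and 51.0%, 55.9% and 54.9% in low glucose. In the fit over sequences its log2 fold change was -0.92 (SE 0.32, adjusted p = 0.034 by edgeR). The 26 nt form had 90, 108 and 82 counts in high glucose and 4, 7 and 0 counts in low glucose. It passed the filter on low counts only through the high glucose libraries, so no test of it is given. Of 5 tested sequences of this arm, 1 was called higher and 2 lower, beside 35.2% higher and 17.4% lower of all tested sequences. With upper quartile scaling 0 were called higher and 2 lower. These counts are a description only, with the same limit on the filter.

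Apart from 13 reads of high glucose library 1 that lie at the very start of the hairpin, the reads of miR-222-5p began at base 24 or 25 of the hairpin, and none began at the annotated base 22. Their seed is therefore not that of the RefSeq entry. The main form had 42, 59 and 39 counts in high glucose and was not listed in any low glucose library. No fold or test is given for it: it passed the filter on low counts only through the deeper high glucose libraries, and a sequence with a single read is not listed.

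Among 119 annotated arms with a mean of 100 CPM or more, the profile of miR-222-3p over the 6 libraries was most like those of miR-351-5p, let-7a-5p and let-7c-5p. The measure was the root mean square distance of log2 CPM centred over the libraries, at 0.20, 0.27 and 0.30. Those of miR-221-3p were most like miR-99b-3p, miR-106b-3p and miR-224-5p, at 0.14, 0.18 and 0.22. miR-221-3p came 38th among the arms nearest to miR-222-3p, at a distance of 1.07.

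Annotated hairpins listed as a single copy were also compared with the next such hairpin within 10000 bases on 1 strand, taking the most abundant tested arm of each. Hairpins with several copies, and pairs with another placed hairpin between them, were left out. Among 13 such pairs from 104 placed hairpins, the cluster included, log2 fold changes differed by 0.22 to 3.89 within a pair, with a median of 1.897. The miR-222-3p and miR-221-3p pair differed by 2.15, and 4 pairs differed by more. The arms had log2 fold changes of the same sign in 6 pairs, this one among them, and of opposite signs in 7.

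Of 17 tested miRNAs known from Schwann cells or nerve injury, the cluster's 3p arms among them, 5 were called higher and 5 lower, beside 122 (41.1%) and 67 (22.6%) of all 297 arms. Their median log2 fold change was -0.33, against 0.68 over all tested arms. With upper quartile scaling 2 were called higher and 10 lower, beside 91 and 93 of all arms. miR-21-5p, the most abundant arm, averaged 173413 ± 34974 CPM in high glucose, against 420793 ± 51121 CPM in low glucose (SD, n = 3 each). This was a log2 fold change of -1.28 (SE 0.19; adjusted p = 9.6e-04 by edgeR). miR-23a-3p averaged 1226 ± 426 CPM in high glucose, against 3640 ± 254 CPM in low glucose (SD, n = 3 each), a log2 fold change of -1.57 (SE 0.26; adjusted p = 0.0013 by edgeR). miR-140-3p was also lower, at -0.91 (SE 0.20; adjusted p = 0.0050 by edgeR). miR-27a-3p was higher, at 0.65 (SE 0.19; adjusted p = 0.017 by edgeR), but was not called with upper quartile scaling. miR-222-3p had the largest log2 fold change of the tested members of this list, and miR-221-3p had the 4th largest.

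Markers of other cell types moved with the groups, and their part in the cluster's results was not tested. By label all 6 libraries are from a single Schwann cell line, and where these miRNAs came from was not tested. The summed level of the erythroid miRNAs was 762 to 954 CPM in high glucose and 3237 to 6395 CPM in low glucose. Both tested members, miR-451-5p and miR-486-5p, were called lower in high glucose. Raw counts of miR-451-5p were 357, 374 and 333 in high glucose and 320, 288 and 440 in low glucose. Those of miR-486-5p were 501, 790 and 582, against 212, 193 and 266. The untested miR-144-3p had 2, 4 and 16 counts in high glucose and 2, 0 and 8 in low glucose. miR-144-5p had 0 counts in high glucose and 2 counts in 1 low glucose library. The neuronal list summed to 16675 to 22924 CPM in high glucose and 7109 to 9279 CPM in low glucose. miR-128-3p carried this difference, at 18246 ± 3423 CPM in high glucose, against 1992 ± 983 CPM in low glucose (SD, n = 3 each). miR-129-5p was called higher too, while miR-218a-5p was called lower, at 935 ± 215 CPM in high glucose, against 4644 ± 486 CPM in low glucose. miR-9a-5p had a log2 fold change of 0.03 and was not called, but was called lower with upper quartile scaling, and miR-129-5p and miR-9a-3p were at 0 in low glucose. The liver list, led by miR-122-5p, summed to 9192 to 15576 CPM in high glucose and 3197 to 4693 CPM in low glucose, and both of its tested members were called higher. The vascular, leukocyte and retina lists overlapped between the groups; the retina list summed to 57.2 to 72.8 CPM in high glucose and 48.7 to 89.6 CPM in low glucose.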

How the data were processed

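Small RNA was sequenced from 6 RSC96 libraries, whose titles give group and number. Per the file headers, the authors deposited raw read counts for each sequence under each hairpin. Novoalign 3.02.12 and cutadapt 1.9.3 appear, without roles, in the submitters' processing notes; genome build and hairpin release: not given in the sources used here. Tested on the files, listed sequences are 16 to 40 nt, have at least 2 reads and at most 1 mismatch. Counts per group and library are given with the results; their number limits the precision.

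Counts were summed per arm, 5p or 3p as a sequence's centre fell before or after the midpoint of its hairpin, with Python 3.11.15, pandas 2.3.3, NumPy 2.4.6, SciPy 1.17.1 and matplotlib 3.10.9. All arms (932 listed, 297 tested) and all sequences (9522 listed, 1496 tested) were fitted in R 4.3.3 with edgeR 4.0.16 and limma 3.58.1, by the quasi-likelihood test with TMM scaling, filterByExpr, robust dispersions and Benjamini-Hochberg adjustment at 0.05. SEs were obtained from the log2 fold change and the root of F. CPM are TMM-scaled. The fits were also run on simulated counts with equally many features raised and lowered. That setting does not cover a shifted median as seen here, so it does not test the scaling. For shares and ratios within a library, exact permutation tests were used, two-sided. Annotated sequences and coordinates are from RefSeq, GRCr8.

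Alternatives were upper quartile and RLE scaling, library totals, DESeq2 1.42.0, other filters, a replicate block and thinning. Thinning used 20 draws for shares and ratios and a single draw for the fit over arms. Further alternatives were exact alignments only, annotated hairpins only, the main sequence only, sequences with 10 or more reads, and each library left out. Named sequences were those of the 3p arms with 5% or more of their arm in a library, or called and averaging at least 20 counts in either group, and the main sequence of each 5p arm. Like arms were the 3 nearest with a mean of 100 CPM or more, and list members those called with a mean of 1000 CPM or more, with miR-21-5p. Not all of these are described. The hairpins and lists were chosen with earlier results of these data known. Predicted hairpins entered only the fits over all arms and sequences. A further list of miRNAs is not reported here.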

Additional observations from a re-analysis of the deposited data

How the results depend on the processing

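Of 212 alternative values, 192 were classed as unchanged. Tested values had to keep their direction and their side of the threshold. Values without a test that can pass one had to stay within the spread between replicates. Counts of called arms or sequences had to stay close to the main count. No called value changed sign. miR-222-3p was called higher under every alternative, with log2 fold changes of 2.88 to 3.13 when single libraries were left out. With upper quartile scaling the log2 fold changes were 0.32 for miR-221-3p, 1.26 for miR-222-5p (both calls lost) and -1.04 for miR-221-5p (now called lower). With only the most abundant sequence of each arm, miR-221-5p was called lower at -1.27. miR-222-5p could not be tested at equal depth, nor without high glucose library 1 or 2. Leaving out single libraries gave 1.67 to 2.59 for miR-222-5p, 0.815 to 1.06 for miR-221-3p and -0.575 to -0.299 for miR-221-5p; the lowest miR-222-5p value, without low glucose library 2, was no longer called. The cause of these changes was not tested.

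The count of arms called higher was 74 of 163 tested at equal depth and 78 of 201 tested with annotated hairpins only, where fewer arms entered the test. Leaving out single libraries gave 79 to 117 arms higher and 41 to 59 lower, with the low ends without high glucose library 2 and low glucose library 2, and 329 to 570 sequences higher and 176 to 264 lower; without any 1 high glucose library fewer sequences were tested. Replicate numbers do not pair the libraries: deviations of same-numbered libraries correlated at 0.0445, -0.000655 and -0.0284, and not every library correlated best with its own number. A replicate block gave 105 arms higher and 58 lower, and 459 sequences higher and 218 lower, and changed no call of the cluster's arms.

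Within-library differences (high minus low glucose) that moved by more than the spread between replicates were these. The rno-mir-221 5p share differed by -3.86 points with sequences of 10 or more reads and by -8.74 with exact alignments only. The rno-mir-222 5p share differed by 0.438 and -0.018. With sequences of 10 or more reads the main sequence share of miR-222-3p differed by 2.91, its shifted 5′ share by 3.34 and its mismatched share by 6.85. The shifted 5′ share of miR-221-3p differed by 6.64 with exact alignments only. Depth limits the low glucose values most: the cluster had 740 to 863 counts in each of those libraries, and sequences with a single read are not listed.

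Leaving out single libraries gave log2 ratio differences of miR-222-3p to miR-221-3p of 2.06 to 2.2, 5p share differences of -6.27 to -5.81 points for rno-mir-221 and -0.834 to -0.212 for rno-mir-222, and mean 3′ end differences of 0.771 to 1.02 nt for miR-222-3p and 0.0371 to 0.129 nt for miR-221-3p.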
